A study of Mus musculus with 15 samples.

Results

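Embryonic germ cells (EGC) are pluripotent lines grown from the primordial germ cells of a midgestation embryo. The comparison described here is between the 2 libraries of female EGC labelled E11.5 XX and the 3 libraries of male EGC labelled E11.5 XY, where E11.5 is the embryonic age in days. Its members are the genes with at least 1 TPM (transcripts per 1000000) in at least 2 of these 5 libraries, which were 13181 of the 34372 genes in the deposited table, from 5 of the 15 libraries of the series. The other libraries were 1 E11.5 XO EGC library, which has a single X and no Y chromosome, 3 E12.5 XY EGC libraries, 3 XX embryonic stem cell (ESC) libraries and 3 XY ESC libraries. Germ cell outgrowths had been started in 2i-LIF medium, which blocks MEK and GSK3, and all lines were then kept on mouse embryonic fibroblast feeders in serum with LIF. RNA was taken from cells sorted for the surface antigen SSEA1 at passage 6, and polyadenylated RNA was sequenced. The karyotype of each EGC library is given by the header of the deposited table. Neither the header nor the labels say whether libraries of 1 label came from separate embryos or from clones of 1 line, so the p-values measure only the spread between these libraries.

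Female pluripotent cells carry 2 active X chromosomes before X inactivation, and so make more RNA from X-linked genes than male cells. In mouse ESC, 2 active X chromosomes are known to go with low DNA methylation and with altered signalling through the MAP kinases ERK1 and ERK2. Dusp9 is an X-linked phosphatase that removes the activating phosphates from ERK kinases, and the series names it as a dose-dependent factor of female DNA hypomethylation. ERK activity is read out at the RNA level by immediate-early genes, which encode short-lived transcription factors such as FOS and EGR1, and by feedback genes such as Dusp6.

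The 5 libraries had the markers of pluripotent cells. Pou5f1, the gene of the pluripotency factor OCT4, had 1541 and 1328 TPM in the XX libraries, against 1346, 1295 and 1162 TPM in the XY libraries. Sox2 had 350 and 401 TPM in XX and 334, 334 and 361 TPM in XY EGC. Of markers of other cell types, Cdx2 (trophoblast), Sox17 (endoderm) and Nanos2 (male germ cells) were at 0.34 TPM or less in all 5 libraries. The germ cell genes Ddx4 and Dazl were not low, at 24.8 and 25.7 TPM and 46.1 and 55.9 TPM in XX EGC. In XY EGC they had 43.9 to 52.7 TPM and 17.5 to 27.8 TPM. The germ cell gene Nanos3 was at 0.784 TPM or less in all 5. Other markers were low but present: the trophoblast genes Gata3 and Hand1 had 2.70 and 2.03 TPM and 1.61 and 0.874 TPM in XX, and at most 0.471 TPM in XY EGC, and the endoderm genes Gata4 and Gata6 had 0.866 to 2.72 TPM over the 5 libraries. Fut4, whose enzyme makes the SSEA1 antigen, was at 0.27 TPM or less in all 5 and was not a member. Between 12848 and 12890 genes reached 1 TPM in the XX libraries and between 12585 and 12624 in the XY libraries. Mitochondrial transcripts took 5.25% and 6.85% of the TPM in XX and 6.71% to 7.85% in XY libraries. The read depth behind the values is unknown.

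Within each label the libraries agreed closely, but 1 library stood apart in 1 respect. Pearson's r of log2(TPM + 1) across the member genes was 0.988 between the XX libraries, 0.988 to 0.989 between the XY libraries and 0.948 to 0.954 between an XX and an XY library. XY library 1 had higher fibroblast transcripts than the others. Col3a1, a fibroblast collagen, had 1.70 and 1.66 TPM in XX EGC, against 15.1, 1.21 and 2.14 TPM in XY EGC, and Dcn had 6.49 TPM in XY library 1 and at most 0.134 TPM in the other 4. The 25 listed fibroblast genes together summed to 320.3 and 317.3 TPM in XX and to 561.1, 354.5 and 428.2 TPM in XY libraries. Of the 20 that were members, 3 were higher and 3 lower in XX (15% each, against 26.8% and 24.6% of all genes). Their part in the other results was not tested, but without XY library 1 the comparison still called 3277 genes higher and 2966 lower.

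A large part of the transcriptome differed between XX and XY EGC. By limma on log2(TPM + 1), a test with a variance shared across genes, 3539 of 13181 genes (26.8%) were higher in XX and 3245 (24.6%) were lower at an adjusted p under 0.05, so that 51.5% of genes were called in either direction. Most of these differences were small: 671 genes were at least 2-fold higher and 377 at least 2-fold lower. The XX and XY values did not overlap for 9458 genes (71.8%). Of the members, 11838 had at least 1 TPM in all 5 libraries, 385 passed the filter through the XX libraries alone and 305 through XY libraries alone. These last 2 sets had to differ by the way members were chosen. Of the genes named below, Pramel7, Pramel6, Nxf7, Rhox2a, Xlr, Magea4, Tuba3b, Dnajc5g, Ube2l6, Fgfr3, Gata3 and Tfap2a entered through XX alone, and Egr2, Enpp2, Kis2, Myl3, Tdrd5 and the Y-linked genes through XY alone, so their values are a description and a p printed for one supports nothing further. The last genes to enter were Papolb, Gpr4 and Zfp939, with a second highest value of 1.00 TPM, and the first to miss were Ccdc79, Wfdc15a and Gm20457, each at 0.999 TPM.

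The X chromosome was the largest single block of genes that rose. Of 542 X-linked members, 442 (81.5%) were higher in XX EGC, 14 were lower and 86 were not called, with a median log2 fold change of 0.87, or 1.83-fold. The same figures over the 12367 autosomal members were 3038 higher and 3173 lower, with a median of 0.002. The quartiles of X-linked genes lay at 0.52 and 1.26 on the log2 scale, and those of autosomal genes at -0.30 and 0.30, and the rise ran along the whole chromosome. In bins of 10 Mb, the median was lowest at 0.65 between 40 and 50 Mb and highest at 1.23 between 30 and 40 Mb. On the 19 autosomes the medians ranged from -0.08 to 0.06. X-linked transcripts took 5.55% and 5.53% of all TPM in the XX libraries, 3.12% in the XO library and 3.30% to 3.31% in the XY libraries.

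**Figure D1:**
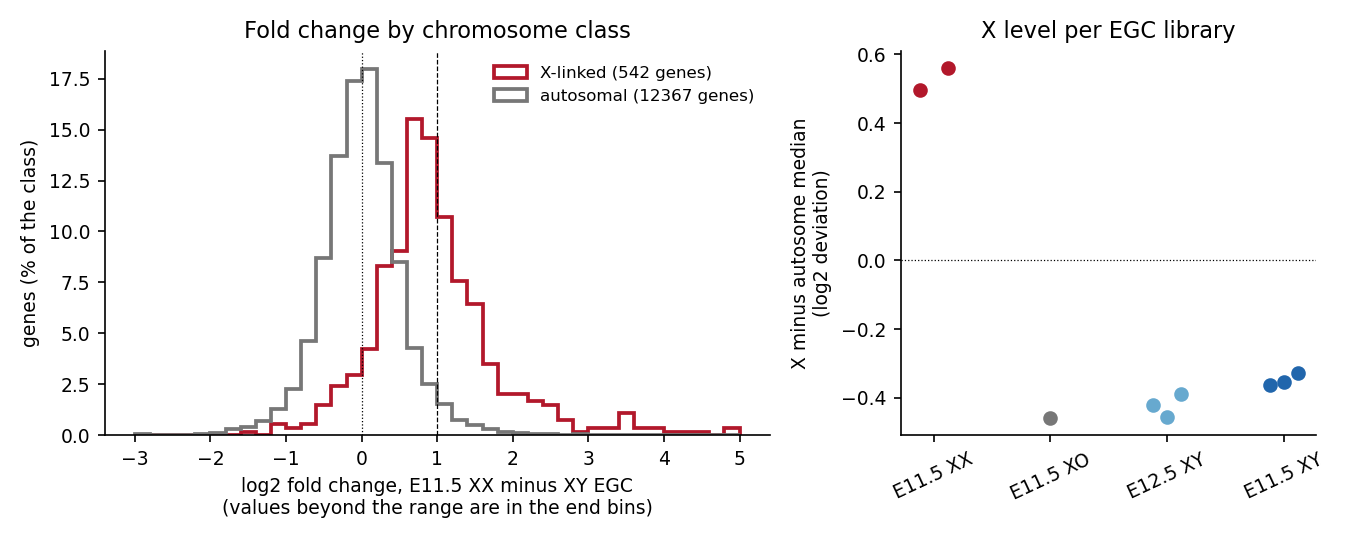
Left, the share of genes by log2 fold change of XX over XY EGC, for X-linked and autosomal members. Right, the X score of each EGC library, the median log2 deviation of X-linked genes from the mean of the 5 E11.5 XX and XY libraries, less the same median for autosomal genes. The X-linked distribution is centred at 0.87 and the autosomal one at 0.002, and the XX libraries score 0.497 and 0.560, the XO library -0.459 and the E11.5 XY libraries -0.364 to -0.329.

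Hprt, which makes a purine salvage enzyme, was close to a doubling. It had 595 and 605 TPM in XX EGC, 353 TPM in the XO library and 320, 288 and 295 TPM in XY EGC (log2 fold change 0.99 ± 0.10 SE, limma adjusted p = 2.78e-06). Klhl13, a ubiquitin ligase adaptor, exceeded a doubling, with 316 and 356 TPM in XX, 29.9 TPM in XO and 67.5, 92.0 and 88.5 TPM in XY EGC (2.02 ± 0.16, adjusted p = 6.58e-07). Zfp185 had 26.4 and 27.3 TPM in XX, 10.6 TPM in XO and 9.63, 8.70 and 10.04 TPM in XY EGC (1.41 ± 0.11, adjusted p = 6.16e-07). The XO library fell with the XY libraries for all 3 genes. Over the 442 X-linked genes that rose, its value was nearer to the XY mean for 416 and nearer to the XX mean for 26. In a list of 25 X-linked candidate dosage factors, 22 rose (88%) and 3 were not called by limma, with a median of 0.73. This was near the figures over all 542 X-linked members, of which 81.55% rose, with a median of 0.87. Of these 25, 0 fell at an adjusted p under 0.05 or at an unadjusted p under 0.05.

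X-linked genes that fell in XX EGC were few. Kis2, a non-coding transcript locus, had 0.284 and 0.130 TPM in XX, against 2.297, 2.294 and 3.435 TPM in XY EGC (log2 fold change -1.59 ± 0.17 SE, limma adjusted p = 7.05e-06). Hmgn5, a nucleosome-binding protein, had 22.4 and 25.2 TPM in XX and 42.0, 47.0 and 52.98 TPM in XY EGC (-0.96 ± 0.13, adjusted p = 6.58e-05). Mtap7d3 and Igsf1, an immunoglobulin superfamily membrane protein, fell by 1.14 and 1.11 on the log2 scale, and Itm2a fell by 0.54. The XO library did not follow the number of X chromosomes here: it had 23.9 TPM of Hmgn5 and 0.275 TPM of Kis2, close to XX, but 9.97 TPM of Mtap7d3, above all 5 other libraries. The number of X-linked genes that fell was 7 with a mean of at least 5 TPM as the filter and 9 with the XY and XO libraries as a joint reference.

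Xist, which coats the X chromosome that is being silenced, was low in all libraries. It was not a member and had 0.669 and 1.65 TPM in XX, 0.116 TPM in XO and 0.0869 to 0.146 TPM in XY EGC. Tsx, a transcribed neighbour of Xist, had 6.21 and 7.53 TPM in XX and 1.35, 1.59 and 1.22 TPM in XY EGC (1.72 ± 0.18 SE, limma adjusted p = 4.63e-06). Rlim, an X-linked ubiquitin ligase that activates Xist, did not differ past the threshold, at 36.0 and 41.7 TPM in XX and 43.3, 44.0 and 44.8 TPM in XY EGC (adjusted p = 0.203), while the XO library had 17.8 TPM.

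Y-linked genes were near 0 in XX EGC and in the XO library. Eif2s3y, a translation initiation subunit, had 0.158 and 0.194 TPM in XX, 0.173 TPM in XO and 111, 77.5 and 105 TPM in XY EGC. Ddx3y and Uty were likewise at 0.118 TPM or less in XX and XO, and at 26.5 TPM or more and 14.4 TPM or more in XY libraries. Ube1y1 was listed at 0 in both XX libraries and had 1.02 to 1.44 TPM in XY EGC. All 4 Y-linked members fell.

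For 3 X-Y gene pairs, the X and Y copies of XY cells together came to the level of the 2 X copies of XX cells. Eif2s3x alone had 278 and 300.3 TPM in XX and 175, 165 and 177 TPM in XY EGC, a ratio of means of 1.68. Added to Eif2s3y, the sum was 289 ± 15.8 TPM in XX (SD, n = 2) and 270 ± 24.1 TPM in XY EGC (SD, n = 3), a ratio of 1.07. Ddx3x, an RNA helicase, was not called (limma adjusted p = 0.238), with a ratio of 1.098 on its own, so that adding the Y copy changed little. The sum of Ddx3x and Ddx3y was 328 ± 22.2 TPM in XX and 327 ± 9.69 TPM in XY EGC, a ratio of 1.00. Kdm6a, a histone demethylase gene, had a ratio of 1.61 on its own. The sum of Kdm6a and its Y copy Uty was 39.96 ± 4.16 TPM in XX and 41.3 ± 1.57 TPM in XY EGC, a ratio of 0.968. In these 3 pairs the XX and XY libraries overlapped. The XO library, with a single copy, had 154.6, 233.7 and 22.5 TPM for the sums. Kdm5c, Usp9x, Zfx and Uba1, whose Y partners were at 1.44 TPM or less in these libraries, had ratios of sums of 1.76, 1.81, 1.37 and 1.66. Reads of X and Y copies are alike in places and may be split between them.

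Dusp9 was the feedback phosphatase that rose most. It lies at chrX:73639419-73643514 on the plus strand of GRCm38. It had 142 and 134 TPM in XX EGC, 33.6 TPM in the XO library, 86.2, 79.8 and 68.6 TPM in E12.5 XY EGC and 35.8, 32.7 and 30.7 TPM in E11.5 XY EGC. Both XX libraries lay above every XO and XY library. The means were 138 ± 5.94 TPM in XX (SD, n = 2) and 33.1 ± 2.54 TPM in XY EGC of the same age (SD, n = 3), a log2 fold change of 2.03 ± 0.09 (SE, limma adjusted p = 5.39e-09), where a doubling would be 1.

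Other ERK feedback genes mostly went the opposite way. The 20 members are phosphatases, Sprouty and Spred inhibitors and ETV factors. Of these, 4 rose (20%, against 26.8% of all genes) and 12 fell (60%, against 24.6%). The median was -0.49, against a median of 0.02 over all genes. Of the 20, 1 entered through the XX and 1 through the XY libraries alone, and among the other 18, 3 rose and 11 fell. Dusp6 (chr10:99263231-99267489), the ERK-induced cytoplasmic ERK phosphatase, had 15.7 and 14.5 TPM in XX, 21.5 TPM in XO, 30.8, 25.04 and 22.96 TPM in E12.5 XY and 39.6, 42.2 and 48.1 TPM in E11.5 XY EGC (-1.46 ± 0.13 SE, limma adjusted p = 1.11e-06). The XX libraries were the lowest of all EGC libraries. Dusp5 (chr19:53529109-53542431), a nuclear ERK phosphatase, had 6.29 and 5.89 TPM in XX and 14.4, 12.9 and 14.9 TPM in XY EGC (-1.08 ± 0.12, adjusted p = 1.03e-05). Dusp4 fell by 1.09 and Dusp1, which acts on several MAP kinases, by 1.04 on the log2 scale. Il17rd, a membrane inhibitor of FGF signalling, fell by 0.76. Beside Dusp9, the members that rose were Dusp14, Spred3 and Etv4.

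Among the lists other than the Y-linked genes, the immediate-early genes had the largest share of members that fell. Of 29 members, 26 fell (89.7%, against 24.6% of all genes), 3 of which entered through the XY libraries alone, 0 rose at an adjusted or an unadjusted p under 0.05 by limma, and 3 were not called, with a median log2 fold change of -0.87. The 3 that were not called were Ier3 (-0.36, adjusted p = 0.0671), Myc (0.09, adjusted p = 0.865) and Sgk1 (0.16, adjusted p = 0.5004), given here after their values were seen. Summed over all 32 listed genes, 29 of them members, the immediate-early group had 921.2 and 921 TPM in XX, 825.6 TPM in XO and 2451, 2613 and 2531 TPM in XY EGC.

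Fos (chr12:85473890-85477273), whose protein pairs with JUN in the AP-1 transcription factor, had 29.3 and 19.3 TPM in XX, 27.9 TPM in XO, 102.1, 123 and 127 TPM in E12.5 XY and 604, 711 and 565 TPM in E11.5 XY EGC. The E11.5 XY libraries lay above all others, and the E12.5 XY libraries lay between them and the XX libraries. The log2 fold change of XX over E11.5 XY was -4.66 ± 0.17 (SE, limma adjusted p = 3.41e-10). Egr1, a zinc finger factor and direct ERK target, had 2.98 and 2.90 TPM in XX, 5.27 TPM in XO, 52.6, 63.3 and 47.2 TPM in E12.5 XY and 122, 144 and 161 TPM in E11.5 XY EGC (-5.18 ± 0.16, adjusted p = 8.12e-11). Fosb (chr7:19302696-19310051) had 1.70 and 0.547 TPM in XX, 0.401 TPM in XO, 4.85 to 7.05 TPM in E12.5 XY and 98.8, 114 and 95.4 TPM in E11.5 XY EGC (-5.66 ± 0.20, adjusted p = 3.41e-10). These 3 genes repeat 1 pattern, in which XX and XO are lowest and E11.5 XY is highest.

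**Figure D2:**
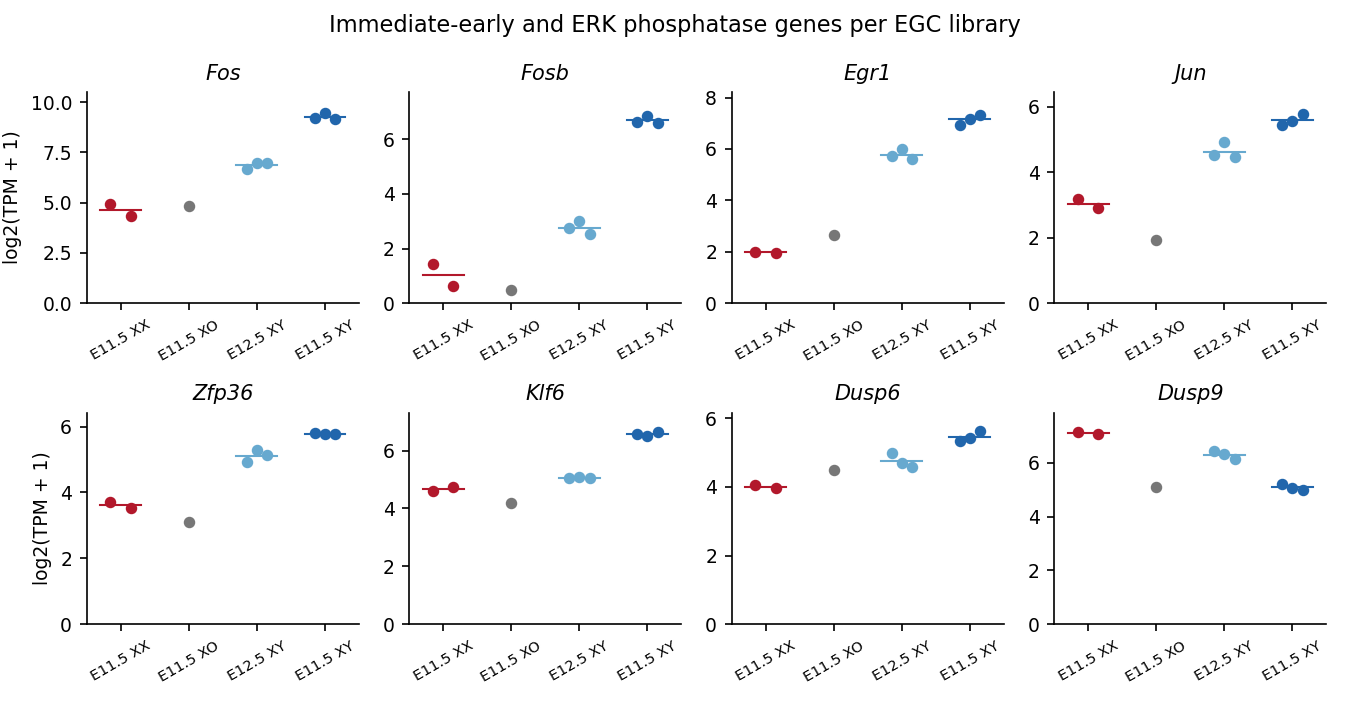
Level in log2(TPM + 1) of 8 genes in each EGC library, with groups on the horizontal axis in the order E11.5 XX, E11.5 XO, E12.5 XY and E11.5 XY. Points are libraries and lines are group means. The immediate-early genes and Dusp6 are highest in E11.5 XY EGC, with Fos at 29.3 and 19.3 TPM in XX against 604, 711 and 565 TPM in E11.5 XY EGC, while Dusp9 is highest in XX EGC.

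The rest of the group fell less. Jun had 8.07 and 6.46 TPM in XX and 42.5, 46.0 and 54.1 TPM in XY EGC (-2.55 ± 0.15 SE, limma adjusted p = 3.16e-08). Zfp36, whose protein destabilises AU-rich mRNAs, had 12.2 and 10.4 TPM in XX and 54.9, 53.8 and 53.3 TPM in XY EGC (-2.16 ± 0.12, adjusted p = 2.59e-08). Klf6, a Krüppel-like factor, had 23.6 and 25.5 TPM in XX and 95.4, 91.0 and 98.8 TPM in XY EGC (-1.91 ± 0.11, adjusted p = 2.70e-08). In all 3 the lowest XY library was over 3 times the highest XX library. Egr2 was near 0 in XX, at 0.0285 and 0.0331 TPM, against 7.17, 7.50 and 9.18 TPM in XY EGC (adjusted p = 2.26e-09). Atf3, a stress-induced factor, had 2.44 and 2.51 TPM in XX and 24.5, 26.6 and 26.1 TPM in XY EGC (-2.94 ± 0.25, adjusted p = 9.82e-07).

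The single XO library was nearer to the XX than to the E11.5 XY mean for all 26 immediate-early genes that fell. With the XY and XO libraries joined as the reference, 10 of the 29 fell, and the calls of Jun, Atf3, Klf6 and Dusp1 were lost. With the E12.5 XY libraries as the reference, 19 fell. The E11.5 XY libraries also stood apart from the other XY libraries of the series: the immediate-early sum was 1267 to 1376 TPM in E12.5 XY EGC and 1084 to 1165 TPM in XY ESC. Between the XX and the E11.5 XY libraries, which have the same age label, the X number, the line and the handling of the cultures cannot be told apart. Between the E11.5 and E12.5 XY libraries, the embryo's age, the line and the handling cannot be told apart.

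Many immediate-early genes are activated by serum response factor, whose binding motif is the CArG box. RefSeq windows of GRCm38.p6, from 250 bases before to 50 after the annotated start, were at hand for 9047 of 13181 members and were searched on both strands for the CArG box. At least 1 window held it in 152 of the 9047 genes (1.68%). The same was so for 3 of 19 immediate-early genes that fell and had a window (15.8%). Of the feedback genes that fell, it was so for 1 of 11 (9.09%). The 3 were Egr2, Srf and Zfp36, and the 1 was Dusp5. The windows of Fos and Fosb held none, which says only that the motif is not within these bases. Dusp5 (chr19:53528895-53529194, plus strand), Egr2 (chr10:67537680-67537979, plus strand) and Zfp36 (chr7:28379179-28379478, minus strand) are printed 5′ to 3′ with the CArG boxes in capitals. The first boxes begin at positions -82, -133 and -58 from the start, and Dusp5 has a second at -72, directly after the first.
Dusp5: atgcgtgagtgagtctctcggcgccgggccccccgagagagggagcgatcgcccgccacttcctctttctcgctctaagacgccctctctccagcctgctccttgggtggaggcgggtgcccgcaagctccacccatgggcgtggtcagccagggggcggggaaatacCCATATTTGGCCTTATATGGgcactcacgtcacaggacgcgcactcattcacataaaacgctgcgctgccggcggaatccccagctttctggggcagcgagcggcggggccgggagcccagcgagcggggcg
Egr2: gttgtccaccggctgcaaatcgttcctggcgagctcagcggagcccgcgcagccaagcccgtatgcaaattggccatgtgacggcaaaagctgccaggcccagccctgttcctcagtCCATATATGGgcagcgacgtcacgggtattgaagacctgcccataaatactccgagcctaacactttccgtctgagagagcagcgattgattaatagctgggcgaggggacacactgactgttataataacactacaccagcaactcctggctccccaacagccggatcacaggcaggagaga
Zfp36: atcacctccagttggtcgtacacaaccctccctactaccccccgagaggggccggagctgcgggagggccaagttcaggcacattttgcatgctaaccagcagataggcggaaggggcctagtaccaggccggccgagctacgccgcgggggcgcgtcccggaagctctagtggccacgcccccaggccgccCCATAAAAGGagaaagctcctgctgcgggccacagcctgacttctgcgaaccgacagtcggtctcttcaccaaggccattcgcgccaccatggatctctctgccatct

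Of 29 members of the pathway from FGF receptors to ERK and its RSK kinases, 11 rose (37.9%, against 26.8% of all genes) and 6 fell (20.7%, against 24.6%), with a median of -0.06. Of these 29, 1 entered through the XX libraries alone, and among the other 28, 10 rose and 6 fell. The rises include the X-linked Eras and Rps6ka3, where 81.55% of all X-linked members rose. The X-linked members of this and other mixed lists were not counted apart. Eras, an X-linked constitutively active RAS of mouse ESC, had 63.4 and 61.7 TPM in XX, 41.4 TPM in XO and 23.8, 22.9 and 23.8 TPM in XY EGC (1.38 ± 0.12 SE, limma adjusted p = 9.52e-07). Fgfr3, an FGF receptor, had 5.007 and 4.153 TPM in XX and 0.888, 0.773 and 0.658 TPM in XY EGC. It was the member that entered through the XX libraries alone, so it had to differ. Fgfr4 fell, at 1.72 and 1.6 TPM in XX and 3.51, 3.29 and 2.75 TPM in XY EGC (-0.65 ± 0.12, adjusted p = 0.000553). Mapk3, the gene of ERK1, fell as well (-0.74 ± 0.09, limma adjusted p = 1.96e-05). It had 37.9 and 43.2 TPM in XX, 69.9 TPM in XO and 73.2, 63.15 and 68.5 TPM in XY EGC. Nras fell by 0.57 on the log2 scale.

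The DNA methylation list holds a pair of PRAME-like genes that entered through the XX libraries alone and so had to differ. In mouse ESC, PRAMEL7 is known to promote loss of UHRF1, the protein that brings the maintenance methyltransferase DNMT1 to replicated DNA. Pramel7 (chr2:87489087-87497093) had 14.7 and 14.2 TPM in XX, 0.0981 TPM in XO, 0.135, 0 and 0.0240 TPM in E12.5 XY EGC and stood at 0 in each of the 3 libraries of E11.5 XY EGC. Its neighbour Pramel6 had 5.06 and 7.33 TPM in XX, 0.207 TPM in XO and 0, 0 and 0.0297 TPM in XY EGC. Among the EGC libraries, both genes exceeded 1 TPM in the XX libraries only. They are close paralogues, and reads may be split between them. The window of Pramel7 (chr2:87492369-87492668, minus strand) is set by the RefSeq start, which lies within the gene's span above. It is printed with its CG dinucleotides, the sites of DNA methylation, in capitals. It holds 1, against a median of 22 over the 9047 genes with a window, taking the highest count per gene.
Pramel7: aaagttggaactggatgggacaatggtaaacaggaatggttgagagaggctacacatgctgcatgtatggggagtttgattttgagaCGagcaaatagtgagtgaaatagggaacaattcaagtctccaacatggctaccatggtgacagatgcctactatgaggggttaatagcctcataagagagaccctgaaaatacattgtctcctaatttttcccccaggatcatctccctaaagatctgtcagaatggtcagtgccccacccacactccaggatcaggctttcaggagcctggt

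The DNA methyltransferase genes Dnmt1, Dnmt3a and Dnmt3b were higher or not called. Of the 24 members of the list, 10 rose (41.7%, against 26.8% of all genes) and 4 fell (16.7%, against 24.6%). Without Pramel7 and Pramel6, which had to differ, 8 of 22 rose and 4 fell. Dnmt3l, the cofactor of de novo methylation, had 379 and 342 TPM in XX, 306 TPM in XO and 167, 173 and 151 TPM in XY EGC (1.13 ± 0.14 SE, limma adjusted p = 2.21e-05). Prdm14, a germ cell and pluripotency factor that represses Dnmt3b, had 40.9 and 42.1 TPM in XX, 32.1 TPM in XO and 21.9, 19.8 and 18.7 TPM in XY EGC (1.01 ± 0.10, adjusted p = 5.08e-06). Zfp57, a zinc finger protein that protects imprints, had 338 and 372 TPM in XX, 547 TPM in XO and 154, 208 and 184 TPM in XY EGC (0.97 ± 0.16, adjusted p = 0.000205). For these genes the XO library was on the XX side.

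Dnmt3b, a de novo methyltransferase, rose as well, at 28.8 and 25.8 TPM in XX, against 13.8, 14.6 and 15.7 TPM in XY EGC (0.85 ± 0.16 SE, limma adjusted p = 0.000798). Dnmt1 had 78.0 and 81.1 TPM in XX and 63.7, 68.2 and 64.5 TPM in XY EGC (0.28, adjusted p = 0.00768), and lost its call when XX library 2 was left out (0.25, adjusted p = 0.0646). Dnmt3a (adjusted p = 0.617) and Uhrf1 were not called: Uhrf1 had 165 and 159 TPM in XX and 167, 174 and 171 TPM in XY EGC (-0.08, adjusted p = 0.397). Against the E12.5 XY libraries, the difference of Dnmt3b was -0.16 and that of Dnmt1 was -0.24 (adjusted p = 0.443 and 0.0188), so neither rose against that reference. Dnmt1, Dnmt3a and Uhrf1 were chosen after their values were seen.

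**Figure D3:**
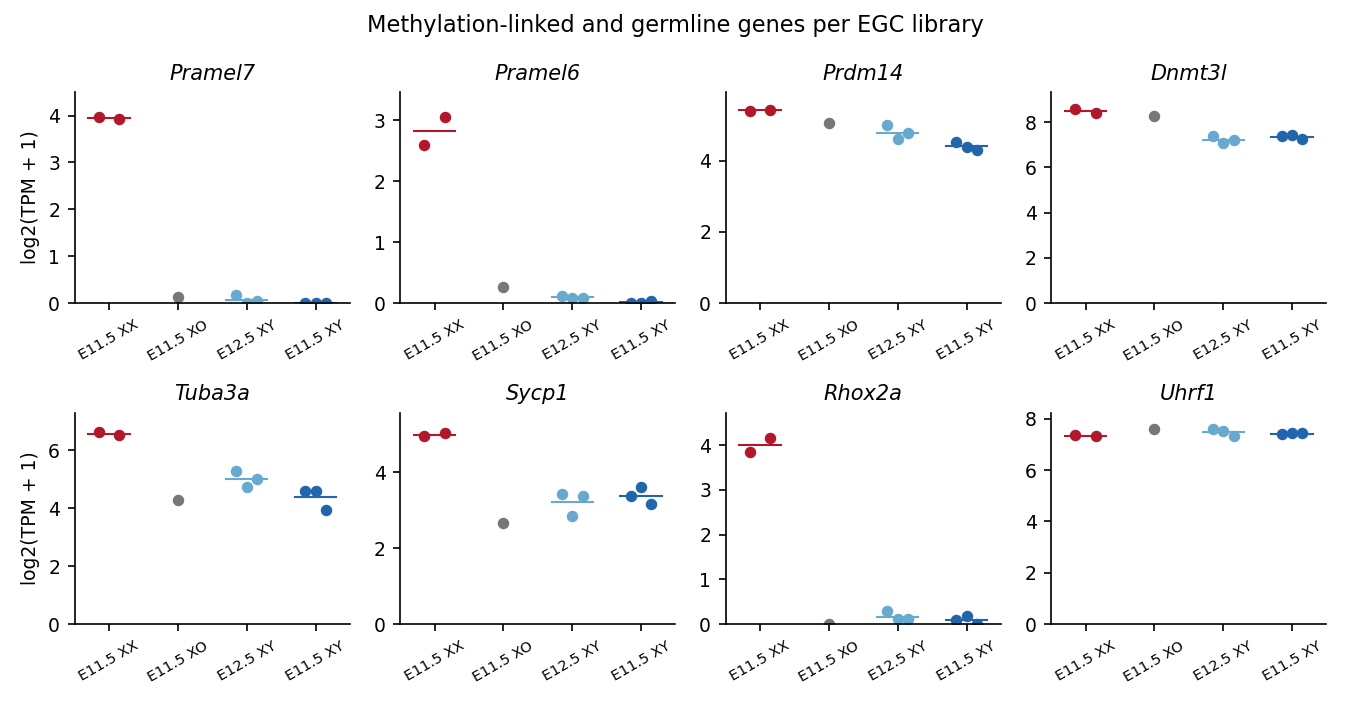
Level in log2(TPM + 1) of 8 genes in each EGC library, with groups in the order E11.5 XX, E11.5 XO, E12.5 XY and E11.5 XY, points for libraries and lines for group means. Pramel7, Pramel6, Rhox2a, Tuba3a and Sycp1 are highest in the 2 XX libraries, while Uhrf1 is at 165 and 159 TPM in XX and 167, 174 and 171 TPM in E11.5 XY EGC.

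Germline genes that are silenced by promoter DNA methylation in somatic cells were more often higher than lower in XX EGC. Of 34 members, 19 rose (55.9%, against 26.8% of all genes) and 7 fell (20.6%, against 24.6%). Of these 34, 1 entered through the XX and 3 through the XY libraries alone, and among the other 30, 18 rose and 5 fell. Tuba3a, a testis alpha-tubulin, had 96.9 and 91.6 TPM in XX, 18.6 TPM in XO and 22.9, 23.1 and 14.4 TPM in XY EGC (2.20 ± 0.19 SE, limma adjusted p = 1.07e-06). Its near-identical copy Tuba3b had 4.66 and 3.83 TPM in XX and 0.228, 0.660 and 0.176 TPM in XY EGC, and the 2 may share reads. Sycp1, a protein of the synaptonemal complex, which joins paired chromosomes in meiosis, had 30.2 and 31.8 TPM in XX, 5.37 TPM in XO and 9.41, 11.3 and 7.96 TPM in XY EGC (1.61 ± 0.18, adjusted p = 1.23e-05). Rpl10l, an autosomal copy of an X-linked ribosomal protein gene, had 60.9 and 69.9 TPM in XX and 19.5, 20.6 and 12.7 TPM in XY EGC. The XO library was nearer to the XY mean for 18 of the 19 genes that rose.

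Other members of the group differed in direction. Dazl, an RNA-binding protein of germ cells, had 46.1 and 55.9 TPM in XX and 24.5, 27.8 and 17.5 TPM in XY EGC (1.12 ± 0.24 SE, limma adjusted p = 0.00172), but Ddx4, the germ cell helicase VASA, had 24.8 and 25.7 TPM in XX and 52.7, 51.6 and 43.9 TPM in XY EGC (-0.94 ± 0.18, adjusted p = 0.000643). Zcwpw1, a reader of histone methylation in meiosis, had 24.3 and 28.1 TPM in XX and 60.2, 56.8 and 55.7 TPM in XY EGC (-1.11 ± 0.13, adjusted p = 1.12e-05), and Tdrd5, of the piRNA pathway, fell by 0.95 on the log2 scale. The meiotic gene Hormad1 had 190 and 208 TPM in XX and 123, 129 and 93.7 TPM in XY EGC (0.80, adjusted p = 0.00340), and is given after its value was seen.

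The motif CACGTG is an E-box that reads the same on both strands and contains a CG. At least 1 window held it in 1088 of 9047 genes (12%). Among germline genes with a window, this was so for 7 of 18 that rose (38.9%) and 4 of 7 that fell (57.1%). CACGTG is a known binding motif of MYC and MAX family factors, among them the repressor of germline genes MGA with MAX. Thus the motif did not separate the genes that rose from those that fell. Sycp1 (chr3:102936051-102936350, minus strand) and Mael (chr1:166238695-166238994, minus strand), a piRNA pathway gene chosen after its values were seen, are printed with the motif in capitals at positions -94 and -223. Mael had 51.2 and 48.7 TPM in XX and 28.3, 31.6 and 23.5 TPM in XY EGC (0.83, limma adjusted p = 0.000461).
Sycp1: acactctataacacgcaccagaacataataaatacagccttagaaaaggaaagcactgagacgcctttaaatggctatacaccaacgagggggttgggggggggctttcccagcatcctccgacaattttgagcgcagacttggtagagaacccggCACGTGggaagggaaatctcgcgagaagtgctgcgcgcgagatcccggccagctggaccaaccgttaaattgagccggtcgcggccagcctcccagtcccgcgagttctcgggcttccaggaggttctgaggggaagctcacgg
Mael: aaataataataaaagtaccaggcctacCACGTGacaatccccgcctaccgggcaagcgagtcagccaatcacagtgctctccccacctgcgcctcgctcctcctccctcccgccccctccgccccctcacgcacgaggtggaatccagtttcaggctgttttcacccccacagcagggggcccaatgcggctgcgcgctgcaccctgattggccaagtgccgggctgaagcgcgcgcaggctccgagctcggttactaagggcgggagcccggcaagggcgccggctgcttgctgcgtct

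X-linked genes of germline and reproductive tissues were nearly all higher in XX EGC, but part of this follows from how members were chosen. Of 31 members, 10 entered through the XX libraries alone and so had to differ. Of the 21 others 20 rose, where 81.55% of all X-linked members rose. Over all 31, 30 rose and 0 fell at an adjusted or an unadjusted p under 0.05 by limma. Rhox1 (chrX:37213804-37222258), a homeobox gene of a reproductive cluster, had 44.4 and 44.8 TPM in XX, 0.757 TPM in XO and 1.58, 1.21 and 0.302 TPM in XY EGC (4.55 ± 0.26 SE, adjusted p = 3.05e-08). Nxf7 (chrX:135579555-135598777), of the mRNA export factor family and 1 of the 10, had 21.7 and 22.5 TPM in XX, 0.135 TPM in XO and 0.203, 0.257 and 0.254 TPM in XY EGC. In the E12.5 XY libraries Rhox1 had 2.57, 1.45 and 1.67 TPM and Nxf7 had 3.44, 2.71 and 3.11 TPM, below XX and above the XO library. Rhox2a had 13.3 and 16.9 TPM in XX and 0.0708, 0.136 and 0 TPM in XY EGC, and Magea4 had 4.37 and 6.11 TPM in XX and 0.0495, 0.0952 and 0 TPM in XY EGC.

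Scml2, a germline Polycomb-related protein, had 45.7 and 50.9 TPM in XX and 3.504, 5.338 and 2.253 TPM in XY EGC (3.44 ± 0.20 SE, limma adjusted p = 4.68e-08). Xlr had 11.2 and 14.7 TPM in XX and 0.188, 0.136 and 0.104 TPM in XY EGC. The X-linked gene Efhc2 had 73.8 and 80.9 TPM in XX and 2.95, 8.65 and 4.64 TPM in XY EGC. Usp26, a testis ubiquitin protease, had 24.4 and 31.4 TPM in XX and 2.89, 4.27 and 2.52 TPM in XY EGC. Rhox5 was the exception in its XO value: it had 171 and 208 TPM in XX, 83.2 TPM in XO, 149, 114 and 100.1 TPM in E12.5 XY and 33.1, 31.4 and 30.01 TPM in E11.5 XY EGC. The Rhox2, Xlr and Magea genes have near-identical copies among which reads may be split. Taking the window with the most CG per gene, the reproductive genes that rose had a median of 7 CG. It was 16 for all X-linked genes that rose and 22 for all members.

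**Figure D4:**
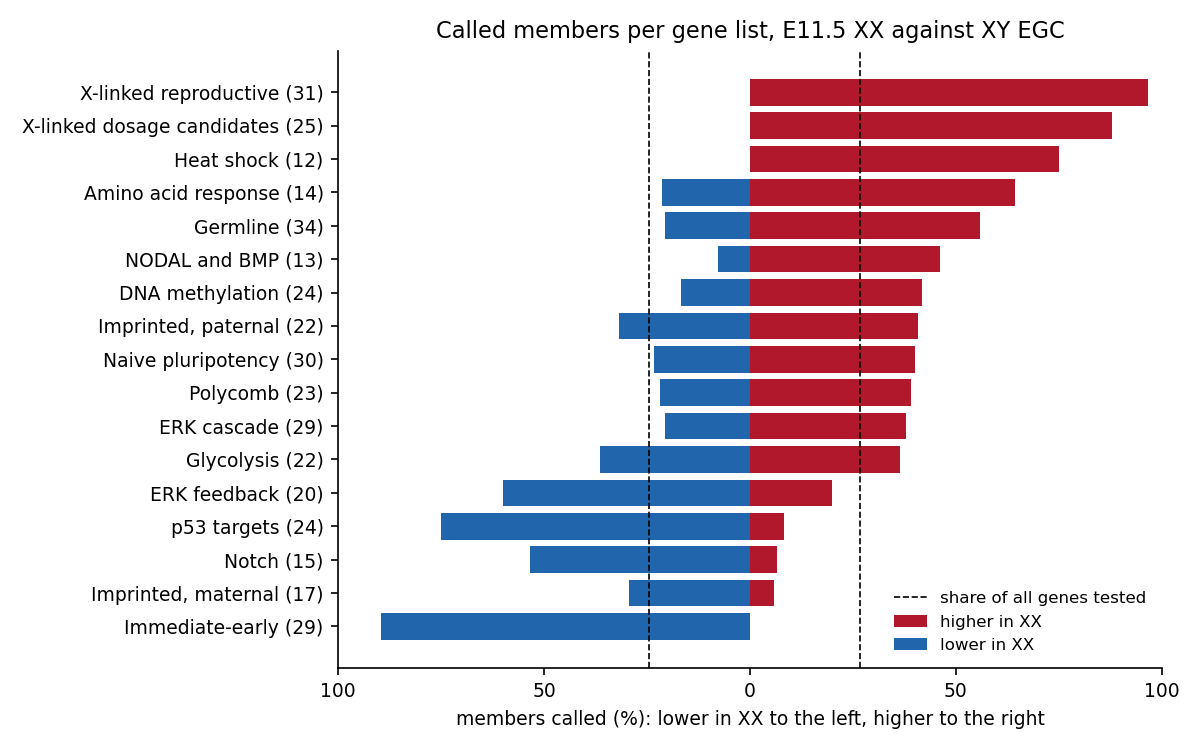
Share of the members of each of 17 gene lists that were higher (to the right) or lower (to the left) in XX than in XY EGC at an adjusted p under 0.05, with dashed lines at the shares over all genes, 26.8% higher and 24.6% lower. X-linked lists lie furthest to the right, with 30 of 31 reproductive genes higher, 10 of which entered through XX alone, and the immediate-early list furthest to the left, with 26 of 29 lower.

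Pluripotency genes differed in both directions. Of 30 naive pluripotency members, 12 rose and 7 fell, with a median of 0.15, against 26.8% and 24.6% over all genes. Nanog had 905 and 806 TPM in XX, 609 TPM in XO and 502, 496 and 516 TPM in XY EGC (0.76 ± 0.07 SE, limma adjusted p = 3.24e-06). Dppa2 had 120.2 and 119 TPM in XX and 45.2, 41.8 and 36.5 TPM in XY EGC (1.52 ± 0.19, adjusted p = 2.66e-05), and Tcl1, an AKT cofactor, rose by 0.87. Among those that fell, Stat3, a transcription factor activated by LIF, had 30.92 and 31.01 TPM in XX and 52.7, 58.8 and 52.6 TPM in XY EGC (-0.80 ± 0.07, adjusted p = 1.44e-06), and the LIF receptor gene Lifr had 8.58 and 9.52 TPM in XX and 17.7, 19.5 and 19.8 TPM in XY EGC. The Krüppel-like factor genes Klf2 and Klf4, given after their values were seen, fell by 0.99 and 0.96, but against the E12.5 XY libraries they were not called (-0.20 and 0.32, limma adjusted p = 0.261 and 0.112). Pou5f1 and Sox2 were not called (adjusted p = 0.166 and 0.230).

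Formative and primed genes mark cells leaving the naive state. Of 15 members, 6 rose (40%, against 26.8% of all genes) and 2 fell (13.3%, against 24.6%). Of these 15, 2 entered through the XX libraries alone, and among the other 13, 5 rose and 2 fell. Sox3, which rose and entered through XX alone, is X-linked. Otx2 had 62.0 and 59.5 TPM in XX, 56.6 TPM in XO and 25.1, 25.7 and 31.9 TPM in XY EGC (1.12 ± 0.17 SE, limma adjusted p = 0.000144). Foxd3 had 9.96 and 9.46 TPM in XX, 8.86 TPM in XO and 2.43, 2.90 and 3.03 TPM in XY EGC (1.503 ± 0.21, adjusted p = 7.22e-05). For both transcription factors the XO library stood with XX. Thus genes of the naive and of the formative state were both found among those that rose.

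Imprinted genes had no shared direction. Of 22 paternally expressed members, 9 rose (40.9%, against 26.8% of all genes) and 7 fell (31.8%, against 24.6%). Of these 22, 2 entered through the XX libraries alone and so had to differ, and among the other 20, 7 rose and 7 fell. Of 17 members listed as maternally expressed, 1 rose (5.88%) and 5 fell (29.4%, near the share over all genes). Ndn, of the Prader-Willi domain, had 26.7 and 26.5 TPM in XX and 9.58, 9.73 and 8.17 TPM in XY EGC (1.45 ± 0.09 SE, limma adjusted p = 8.65e-08), and its neighbour Peg12 rose by 2.04. Plagl1, a zinc finger growth regulator, had 16.1 and 19.4 TPM in XX and 5.14, 4.84 and 7.05 TPM in XY EGC (1.5 ± 0.26, adjusted p = 0.000364). By contrast the paternally expressed Nnat and Impact fell by 1.11 and 0.77. Among maternally expressed genes, the non-coding RNA Meg3 (chr12:109541001-109571726) had 197 and 194 TPM in XX, 665 TPM in XO and 625, 756 and 615 TPM in XY EGC (-1.75 ± 0.11, adjusted p = 5.91e-08). Phlda2 and Slc22a18, of the Kcnq1 domain, fell by 1.29 and 1.39, and the 1 that rose was Ddc, whose known imprinted transcript in mouse comes from the paternal copy, so that its place in the maternal list is doubtful. Ddc was at 33.5 and 35.3 TPM in XX and 17.01, 14.34 and 9.203 TPM in XY EGC.

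Targets of the tumour suppressor p53 were mostly lower in XX EGC. Of 24 members, 18 fell (75%, against 24.6% of all genes) and 2 rose (8.33%, against 26.8%), with a median of -0.54. Of the 18, 1 entered through the XY libraries alone. Plk2 (chr13:110395046-110400844), a kinase induced by serum and by p53, had 21.9 and 20.6 TPM in XX, 20.4 TPM in XO, 32.9 to 38.3 TPM in E12.5 XY and 93.4, 115 and 82.1 TPM in E11.5 XY EGC (-2.12 ± 0.14 SE, limma adjusted p = 1.39e-07). Cdkn1a, the cell cycle inhibitor p21, had 37.7 and 36.8 TPM in XX and 67.8, 73.8 and 62.0 TPM in XY EGC (-0.84 ± 0.08, adjusted p = 4.02e-06). Mdm2, the ubiquitin ligase of p53, had 119 and 121 TPM in XX and 214, 238 and 195 TPM in XY EGC, and Trp53inp1 fell by 1.40. Sesn1, an antioxidant p53 target, rose by 0.68. The XO library was nearer to the XX mean for 14 of the 18 that fell. The number that fell was 9 with XY and XO joined as the reference and 10 against the E12.5 XY libraries.

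Heat shock genes were higher. Of 12 members, 9 rose (75%, against 26.8% of all genes), with a median of 0.55. By limma, 0 fell at an adjusted or unadjusted p under 0.05. Hspb1 (chr5:135887919-135889563), a small heat shock protein, had 707 and 642 TPM in XX, 407 TPM in XO and 253, 265 and 237 TPM in XY EGC (1.42 ± 0.12 SE, adjusted p = 9.22e-07). Hspd1, the mitochondrial chaperonin, had 729 and 794 TPM in XX and 376, 330.3 and 355 TPM in XY EGC, and Hspa8, the constitutive HSC70 chaperone, had 2578 and 2465 TPM in XX and 1468, 1384 and 1492 TPM in XY EGC (0.80 ± 0.10, adjusted p = 1.81e-05).

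Genes of the ATF4 response, which answers amino acid shortage and stress, moved both ways. Of 14 members, 9 rose (64.3%, against 26.8% of all genes) and 3 fell (21.4%, against 24.6%). Atf4 had 215 and 223 TPM in XX, 169 TPM in XO and 389, 358 and 357 TPM in XY EGC (-0.75 ± 0.08 SE, limma adjusted p = 8.69e-06), and Ddit3, the stress factor CHOP, fell by 1.07. The serine pathway enzymes Phgdh and Psat1 rose: Phgdh had 139.7 and 135 TPM in XX and 85.5, 72.3 and 65.5 TPM in XY EGC (0.88 ± 0.14, adjusted p = 0.000153), and Psat1 had 348 and 358 TPM in XX and 223, 194 and 196 TPM in XY EGC (0.79 ± 0.12, adjusted p = 0.000147).

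Signalling and differentiation genes included some of the largest autosomal falls. Dll1 (chr17:15367354-15376872), a Notch ligand, had 1.56 and 1.64 TPM in XX, 3.52 TPM in XO, 5.05, 9.12 and 10.8 TPM in E12.5 XY and 40.6, 56.6 and 42.2 TPM in E11.5 XY EGC (-4.17 ± 0.25 SE, limma adjusted p = 4.68e-08). Of 15 Notch pathway members, 8 fell (53.3%, against 24.6% of all genes) and 1 rose (6.67%, against 26.8%). Of these 15, 1 entered through the XY libraries alone, and among the other 14, 7 fell and 1 rose. The target gene Hes1 had 34.1 and 36.9 TPM in XX and 58.1, 54.8 and 74.9 TPM in XY EGC, while the receptor gene Notch4, which was the 1 that rose, had 8.65 and 8.90 TPM in XX and 2.92, 2.54 and 2.81 TPM in XY EGC. Of 13 NODAL and BMP targets, 6 rose (46.2%, against 26.8% of all genes) and 1 fell (7.69%, against 24.6%). Lefty2, an extracellular NODAL inhibitor, had 116 and 120 TPM in XX, 34.8 TPM in XO and 25.4, 17.2 and 25.1 TPM in XY EGC (2.36 ± 0.18, adjusted p = 4.17e-07), and Lefty1 rose by 1.06. Skil, a SMAD repressor, was the 1 that fell, at 27.4 and 28.9 TPM in XX and 58.2, 61.6 and 56.5 TPM in XY EGC.

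Of 4 simple keratin genes in the trophoblast list, which mark trophoblast and other epithelia, 3 were lower in XX EGC. Krt18 had 16.03 and 12.89 TPM in XX, 17.2 TPM in XO, 218, 172 and 173 TPM in E12.5 XY and 68.3, 66.5 and 77.8 TPM in E11.5 XY EGC (-2.22 ± 0.28 SE, limma adjusted p = 2.81e-05). Krt8, its partner in filaments, and Krt7 fell by 1.77 and 2.27. Krt19 was not called, at 49.4 and 37.2 TPM in XX and 39.85, 34.1 and 27.8 TPM in XY EGC (0.34, adjusted p = 0.0521). Among the 6 trophoblast members, 2 rose (33.3%, against 26.8% of all genes) and 3 fell (50%, against 24.6%). These 3 keratins were the ones that fell. The 2 that rose were the transcription factor genes Gata3, at 2.70 and 2.03 TPM in XX and 0.310 to 0.471 TPM in XY EGC, and Tfap2a, at 1.57 and 1.54 TPM in XX and 0.528 to 0.802 TPM in XY EGC. Both entered through the XX libraries alone, and these 2 genes and Krt19 are given after their values were seen. The trophoblast factor Cdx2 was listed at 0 in both XX libraries and had 0.0520, 0.0836 and 0.190 TPM in XY EGC. Fn1, the fibronectin gene, had 108 and 125 TPM in XX and 166, 199.6 and 214 TPM in XY EGC. Of 22 glycolysis members, 8 rose and 8 fell (36.4% each, against 26.8% and 24.6% of all genes). Ldhb, a lactate dehydrogenase subunit, had 254 and 269.7 TPM in XX and 768, 834 and 936 TPM in XY EGC (-1.68 ± 0.13, adjusted p = 5.63e-07).

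Among the other autosomal genes with the largest differences were several with a tissue-restricted use. Kiss1, the gene of the reproductive neuropeptide kisspeptin, had 16.03 and 12.64 TPM in XX and 0.958, 1.04 and 0.770 TPM in XY EGC (2.99 ± 0.20 SE, limma adjusted p = 1.54e-07). Slc13a5, a citrate transporter, had 19.8 and 19.2 TPM in XX and 1.28, 2.42 and 1.45 TPM in XY EGC (2.94 ± 0.20, adjusted p = 1.82e-07), and Dnajc5g had 6.51 and 10.6 TPM in XX and 0.212, 0.128 and 0 TPM in XY EGC. Of the autosomal genes at least 2-fold higher in XX, the XO library was nearer to XY for 299 of 439. On the lower side, Myl3, a muscle myosin light chain, had 0.562 and 0.290 TPM in XX, 2.86 TPM in XO and 22.5, 21.2 and 19.6 TPM in XY EGC (-3.96 ± 0.25, adjusted p = 8.23e-08). Enpp2, which makes the lipid signal lysophosphatidic acid, had 0.306 and 0.187 TPM in XX and 11.4, 14.1 and 14.1 TPM in XY EGC, and Adssl1, a muscle enzyme of AMP synthesis, had 3.32 and 3.21 TPM in XX and 25.98, 27.44 and 28.33 TPM in XY EGC. Of the autosomal genes at least 2-fold lower, the XO library was nearer to XY for 142 of 364.

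A few further genes and lists complete the comparison. Tubb3, a neuronal beta-tubulin, had 42.2 and 39.9 TPM in XX, 12.7 TPM in XO and 5.38, 3.48 and 5.14 TPM in XY EGC, and the keratin gene Krt42 had 53.7 and 51.1 TPM in XX, 39.2 TPM in XO and 13.2, 15.0 and 9.88 TPM in XY EGC. Aard had 48.4 and 46.2 TPM in XX, 8.02 TPM in XO and 7.22, 8.18 and 6.46 TPM in XY EGC. Ube2l6, an enzyme of ISG15 conjugation, had 9.04 and 9.33 TPM in XX, 0.197 TPM in XO and 0.531, 0.352 and 0.322 TPM in XY EGC. All 4 rose. Ptgs2, a prostaglandin synthase gene with immediate-early induction, fell, with 1.87 and 1.63 TPM in XX, 0.750 TPM in XO, 0.459, 0.275 and 0.2005 TPM in E12.5 XY and 5.91, 6.73 and 8.83 TPM in E11.5 XY EGC, so that the XX libraries lay above the E12.5 XY ones.

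The remaining lists had shares closer to those of all genes or few members. Polycomb genes rose in 9 and fell in 5 of 23, cholesterol synthesis genes in 5 and 4 of 21, WNT targets in 3 and 3 of 9, primordial germ cell identity genes in 4 and 4 of 10, interferon-linked genes in 5 and 1 of 8, primitive endoderm genes in 3 and 2 of 10, and neuroectoderm genes in 2 and 2 of 5. Of 2 mesoderm members 1 rose (50%), and of 5 members of the 2-cell-like state, whose Zscan4 copies may share reads, 2 rose (40%). By limma, 0 of either list fell at an adjusted or unadjusted p under 0.05. All 3 primitive endoderm genes and the 1 mesoderm gene that rose entered through the XX libraries alone and so had to differ. Among the 6 primitive endoderm members that entered through both labels, 0 rose and 1 fell. The Polycomb and interferon-linked rises each held 1 gene that entered through XX alone, and the WNT target falls 1 through XY alone. The Polycomb rises include the X-linked Scml2. Of 15 mitochondrial transcripts, 5 fell (33.3%, against 24.6% of all genes) and 0 rose at an adjusted or unadjusted p under 0.05.

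The same contrast in ESC allows a test of what differs between the cell types. Over the same 13181 genes, 3603 (27.3%) were higher and 2589 (19.6%) lower in XX than in XY ESC. Both contrasts shared 2198 genes that rose, which were 62.1% of those in EGC and 61.0% of those in ESC, and 1677 that fell, which were 51.7% and 64.8%. The difference between the contrasts was tested by an interaction term. It was higher in EGC for 860 genes (6.52%) and lower for 1330 (10.1%). That total of 2190 genes was sensitive to single libraries: it was 728 without XX library 1, 1171 without XX library 2, 1265 without XY library 2, and 176 with the XY and XO libraries joined as the EGC reference.

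Immediate-early genes stood out among the interactions that were lower in EGC. Of the 29 members, 18 had a lower difference in EGC, where 10.1% of all genes did. In ESC, 11 of the 29 fell and 3 rose, where 19.6% of all genes fell and 27.3% rose. Fos differed by -0.71 ± 0.15 (SE) in ESC, far less than in EGC (interaction -3.95 ± 0.23, limma adjusted p = 8.74e-07), with an average of 45.6 TPM in XX ESC, against 74.2 TPM in XY ESC. Egr1 averaged 5.12 TPM in XX ESC, against 22.6 TPM in XY ESC (-1.93 ± 0.15, interaction -3.25 ± 0.22, adjusted p = 2.33e-06). For both genes the XX level of EGC was below that of XX ESC, and the E11.5 XY level of EGC was above that of XY ESC. With XY and XO joined as the EGC reference, limma called 0 of the 29 and 7 had an unadjusted p under 0.05, while 11 were called against the E12.5 XY libraries. Plk2 was not called in ESC (-0.02, adjusted p = 0.907), with an interaction of -2.10 ± 0.19 (adjusted p = 4.04e-05).

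The median log2 fold change of X-linked genes was 0.87 in EGC and 0.98 in ESC. The median difference per gene was -0.20. Of the 542 X-linked members, the difference was higher in EGC for 16 (2.95%, against 6.52% of all genes). It was lower in EGC for 93 (17.2%, against 10.1%). Dusp9 rose more in EGC, by 2.03 against 1.18 ± 0.08 in ESC (interaction 0.85 ± 0.13, limma adjusted p = 0.00164), and this reversed to -0.36 (adjusted p = 0.0629) with the E12.5 XY libraries as the reference. Pramel7 did not differ past the threshold between the contrasts (adjusted p = 0.603), with a mean of 13.7 TPM in XX ESC, against 0.0328 TPM in XY ESC. Sycp1 rose less in EGC than in ESC (interaction -0.84 ± 0.25, adjusted p = 0.0351), and this call was lost when XX library 1, XX library 2, XY library 1 or XY library 2 was left out (adjusted p = 0.0528 to 0.122).

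**Figure D5:**
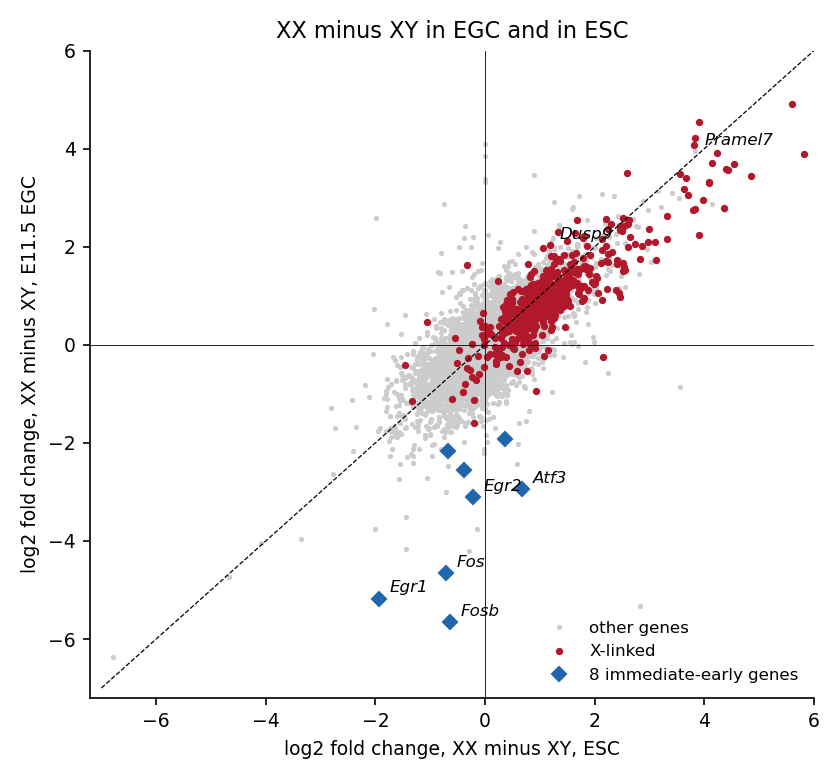
Log2 fold change of XX over XY in E11.5 EGC (vertical) against the same in ESC (horizontal) for each of the 13181 members, with X-linked genes in red and 8 immediate-early genes as blue diamonds, both axes in log2 units of TPM + 1. Most X-linked genes lie above 0 on both axes, with medians of 0.87 in EGC and 0.98 in ESC, and the immediate-early genes lie far below 0 in EGC, with Fos at -4.66 in EGC and -0.71 in ESC.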

How the data were processed

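RNA levels of 15 mouse libraries were taken from 1 deposited table of TPM values. The authors' TPM are scaled to 1000000 per library, and the deposited values hold no read counts, so depth is unknown and replicate spread is the only error. The submitters' processing notes name edgeR 3.8.6, HTSeq 0.6.0, STAR 2.3.0, Picard 1.100, SAMtools 0.1.18.0 and GRCm38 (mm10), without role or order; how TPM were made is not given in the sources used here. Karyotype labels come from the table's header.

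Genes reaching 1 TPM in 2 or more of the 5 libraries were analysed as log2(TPM + 1), which understates changes of low genes. In R 4.3.3, limma 3.58.1 fitted 1 mean per label to all 15 libraries (9 residual degrees of freedom, mean-variance trend). Tests were 2-sided, adjusted by Benjamini-Hochberg over 13181 genes, threshold 0.05, and the method was tested on simulated data. The interaction compared XX minus XY in EGC with that in ESC. Alternatives changed the pseudocount (0.1), filter, scaling, model, reference libraries and libraries left out. Positions are from GENCODE M21. Promoters are from RefSeq (GRCm38.p6).

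Members and lists were chosen with earlier results of these data known. Named genes were Dusp9, Fos, Egr1, Dusp6, Pramel7, Xist and Y-linked genes; the 15 largest non-overlapping autosomal and X-linked changes (10 for X-linked falls), predicted genes left out; up to 6 list members by smallest p; and the 8 largest interactions in each direction. The text discusses some of these and says where others were chosen after their values were seen. Python 3.11.15 read the table and drew figures.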

Additional observations from a re-analysis of the deposited data

Results flagged for a closer look

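The results below are genes discussed in the report whose XX minus XY difference was not the same in E11.5 EGC as in ESC, by limma's interaction test at an adjusted p under 0.05. Each value is the log2 difference in EGC minus that in ESC, so a negative value means that the difference in EGC was lower. There were 55 such genes among the 126 discussed, and 2190 among all 13181 members. Mapk3 was not counted among the 126, and its difference also passed, at 0.48 (limma adjusted p = 0.0178).

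Among ERK-related genes, the immediate-early genes Fosb (-5.03), Fos (-3.95), Atf3 (-3.63), Egr1 (-3.25), Egr2 (-2.90), Klf6 (-2.27), Jun (-2.17) and Zfp36 (-1.48) and the phosphatase genes Dusp1 (-1.35), Dusp6 (-0.94) and Dusp4 (-0.87) were lower. Dusp9 (0.85) and Eras (0.54) were higher. The sum over the 32 listed immediate-early genes was 2451 to 2613 TPM in E11.5 XY EGC and 1084 to 1165 TPM in XY ESC. The part of this in the results was not tested.

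Of the other X-linked genes, Usp26 (-1.57), Scml2 (-1.41), Kis2 (-1.39), Itm2a (-1.31), Rlim (-0.86), Xlr (-0.79), Ddx3x (-0.52) and Kdm5c (-0.34) were lower.

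Of DNA methylation and germline genes, Dnmt3b (0.84) and Dnmt3a (0.59) were higher and Tuba3b (-0.98) and Sycp1 (-0.84) were lower. The pluripotency genes Klf4 (-2.19), Klf2 (-1.18), Otx2 (-0.84), Lifr (-0.74) and Stat3 (-0.44) were lower. Of imprinted genes, Phlda2 (1.52) and Nnat (0.68) were higher and Impact (-1.25) was lower.

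The p53 targets Plk2 (-2.10), Trp53inp1 (-1.16), Mdm2 (-0.75) and Cdkn1a (-0.63) and the stress factor Atf4 (-0.59) were lower, and the heat shock genes Hspb1 (0.59) and Hspd1 (0.44) were higher. Of the signalling genes, Dll1 (-2.73), Hes1 (-0.70) and Skil (-0.50) were lower and Lefty1 (1.24), Lefty2 (1.01) and Notch4 (0.87) were higher. Of the remaining genes, Ptgs2 (-2.29), Enpp2 (-2.07), Ube2l6 (-1.28), Adssl1 (-1.17) and Fn1 (-0.52) were lower and Krt42 (1.75), Tubb3 (1.65), Krt19 (0.83) and Aard (0.69) were higher.

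Of these 55 genes, 21 lost the call with at least 1 of the 5 libraries left out. Kdm5c lost it with each of the 5 (adjusted p = 0.0639 to 0.131). Eras, Hspd1, Nnat, Notch4 and Sycp1 lost it with any of 4, Fn1, Otx2 and Skil with any of 3, and Hspb1, Lefty2 and Mdm2 with either of 2. Xlr (adjusted p = 0.140), Ddx3x (0.0782), Dnmt3a, Dnmt3b, Hes1, Trp53inp1, Aard and Krt19 lost it without XX library 1, and Tuba3b without XX library 2.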

How the results depend on the processing

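Over the alternatives that kept all 5 libraries, the count of genes higher in XX was 2485 to 4087 and of genes lower 2360 to 3980, against 3539 and 3245. Rises were 47.83% to 55.27% of calls, except with the E12.5 XY libraries as the reference, where 2684 genes rose and 3980 fell (40.28%). Leaving out 1 library gave 2621 to 3277 higher and 2283 to 2966 lower. The cause of each change below was not tested. X-linked genes lower (14) numbered 7 at a mean of at least 5 TPM and 9 with XY and XO joined. Immediate-early genes lower (26) numbered 10 with XY and XO joined, and p53 targets lower (18) numbered 9 with that reference and 10 with E12.5 XY. Genes differing between EGC and ESC (2190) numbered 176 with XY and XO joined and 728 to 1938 with 1 library left out, and immediate-early genes with a lower difference in EGC (18) numbered 0 with XY and XO joined and 11 with E12.5 XY. With E12.5 XY as the reference, Dnmt3b (-0.16), Dnmt1 (-0.24), Ptgs2 (1.07), Klf4 (0.32), Krt19 (-0.69) and Myc (-0.41) reversed, as did the EGC minus ESC differences of Dusp9 (-0.36), Eras (-0.37), Dnmt3b (-0.16), Dnmt3a (-0.36), Nnat (-1.11), Atf4 (0.0681), Notch4 (-0.38), Krt19 (-0.21) and Ptgs2 (0.33). Rlim reversed with XY and XO joined (0.14). Ddx3x (-0.0466), Myc (-0.0102) and Sox2 (-0.0394) reversed under quantile scaling, and Myc without XY library 1 (-0.0858) or 2 (-0.0915); leaving out any 1 library moved Myc between -0.0915 and 0.43, and none of these 4 genes was called. Of the other values of genes discussed, 2263 kept direction and call, 161 lost the call and 10 gained it. No paired analysis was possible because replicate numbers were given in accession order. TPM keep no depth, so no limit of detection can be given for genes listed at 0.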
